A study of Homo sapiens with 12 samples.

Results

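The deacetylases that have been proposed to remove lactyl groups from lysine were read in 3 human hepatocellular carcinoma lines, HLF, SNU475 and PLC/PRF/5. They are the genes HDAC1, HDAC2, HDAC3, HDAC8, SIRT1, SIRT2, SIRT3, SIRT5, SIRT6 and SIRT7, chosen by symbol. All 10 were present among 62710 genes, and all 10 were among the 18355 genes that passed the filter on low counts. Each line was sequenced as 2 control libraries and 2 libraries from cells kept for 24 h in 20 mM lactate (added as lactic acid), so that there were 6 groups and 12 libraries. No group carries an engineered allele, and control and treated cells of a line differ in the labels only by the lactate. Each established line stands for 1 tumour. Nothing in the labels states that the libraries within a group were grown as separate cultures, and p-values here measure only how far those libraries lie apart, a spread that may be technical. The questions asked of the 10 genes were whether their RNA differed with lactate in each line, and whether it differed between the untreated lines.

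Lactate can be attached to lysine side chains of histones and other proteins, a mark called lactylation, and the mark is removed by enzymes first known as lysine deacetylases. HDAC1, HDAC2, HDAC3 and HDAC8 are class I histone deacetylases, which use zinc for catalysis. HDAC1 and HDAC2 sit in the nuclear corepressor complexes SIN3, NuRD, CoREST and MiDAC, and HDAC3 sits in the NCoR/SMRT complex. HDAC8 works without such a complex and is known for deacetylating cohesin. Sirtuins consume NAD, which ties them to the redox state of the cell and hence to the interconversion of lactate and pyruvate. SIRT1, SIRT6 and SIRT7 are mostly nuclear, with SIRT7 enriched in nucleoli. SIRT2 is mostly cytoplasmic, while SIRT3 and SIRT5 act in mitochondria, where SIRT5 prefers acidic acyl groups such as succinyl and malonyl over acetyl.

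The libraries held 16533437 to 22187849 counts. The labels call all lines liver carcinoma cells, but the defining hepatocyte markers ALB and APOA1 were at or near 0 in HLF and SNU475 (at most 0.45 TPM) and were expressed in PLC/PRF/5 (7.66 TPM or more). Summed over 11 hepatocyte markers the level was 3223 to 7354 TPM in PLC/PRF/5, 10.8 to 17.96 TPM in HLF and 5.42 to 8.86 TPM in SNU475. Markers of other cell types were low for T cells (summed level at most 0.55 TPM) and endothelium (at most 4.79 TPM). The 3 macrophage markers summed to 141.6 to 162.4 TPM in HLF, 40 to 158.8 TPM in SNU475 and 24.95 to 43.2 TPM in PLC/PRF/5, most of it CD68 in each line, while CD163 was at most 0.64 TPM and CD14 reached 29.5 TPM in SNU475. The 3 stellate cell and fibroblast genes summed to 781 to 1194 TPM in SNU475, 14 to 37.9 TPM in HLF and 1.32 to 2.94 TPM in PLC/PRF/5. The part of these line differences in the results below was not tested. Both SNU475 libraries numbered 2 stood apart from those numbered 1: mitochondrially encoded genes took 15.05% and 13.88% of their counts, against 8% and 8.5%. Results in SNU475 are therefore given by library, with the values that change without them.

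HDAC2 was the most abundant of the 10 transcripts, HDAC1 the second and HDAC3 the third, in each of the 12 libraries. On the TPM scale, which corrects for transcript length and so allows genes to be compared, HDAC2 ranged from 104 to 192 TPM and HDAC1 from 57.7 to 159 TPM. HDAC3 ranged from 34.3 to 66.5 TPM. HDAC8, the class I enzyme outside the large complexes, was much lower, at 12.9 to 25.4 TPM. The 4 class I genes together made up 78.3% to 80.7% of the summed TPM of the 10 genes in the 6 group means. The 6 sirtuins shared the rest. SIRT2 took rank 4 or 5 in every library, at 17 to 29.3 TPM. SIRT5 took ranks 8 to 10, at 2.65 to 10.3 TPM, and SIRT3 ranged from 3.3 to 17.9 TPM. SIRT1 ranged from 7.57 to 16.6 TPM, SIRT6 from 12.4 to 21 TPM and SIRT7 from 9.18 to 27.2 TPM. The levels of nuclear and mitochondrial sirtuins thus overlapped, and all sirtuins lay below HDAC1 and HDAC2 in every library.

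**Figure D1:**
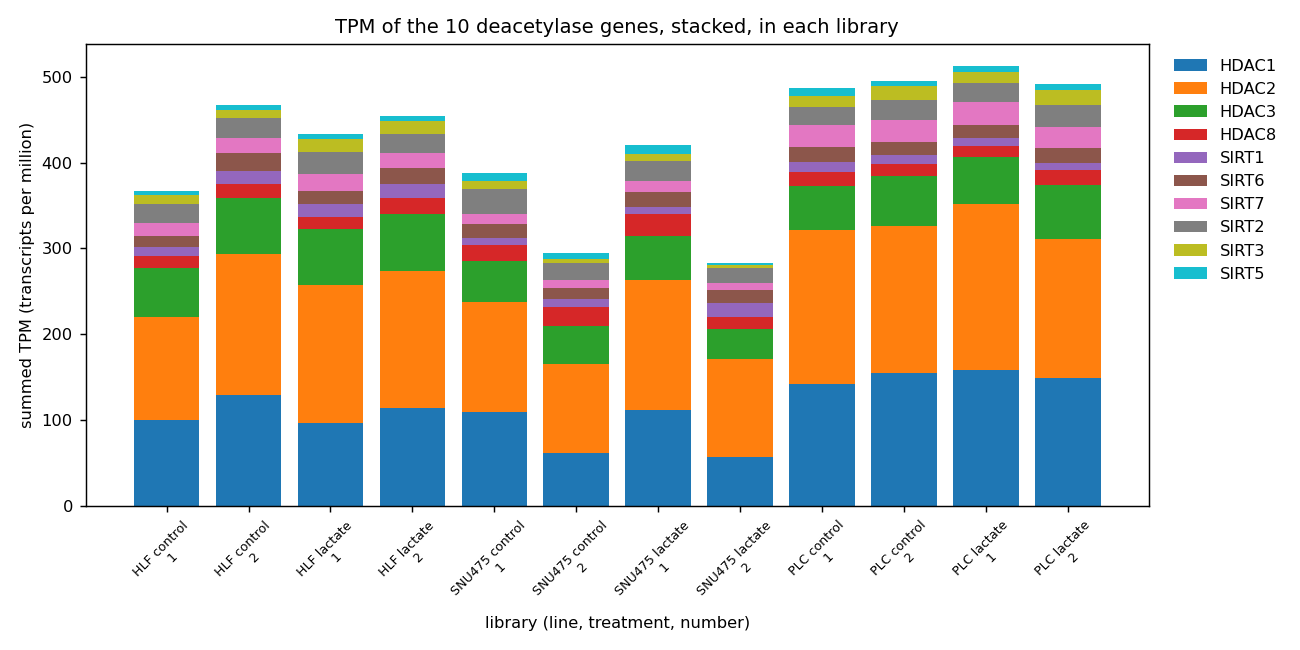
TPM of the 10 deacetylase genes stacked for each of the 12 libraries (PLC stands for PLC/PRF/5); bar height is their summed TPM. HDAC2 and HDAC1 take most of every bar, and the SNU475 libraries numbered 2 have the lowest sums of all 12 bars.

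All 10 members had at least 102 expected counts in every library. HDAC1 had 1822 to 4552 expected counts in a library and HDAC2 had 2270 to 3492. The fewest were seen for SIRT3, at 102 to 457, and SIRT5, at 103 to 282. RSEM divides reads that match several transcripts, and SIRT5 was the member with no whole expected count in any of the 12 libraries, so part of its value is an assignment by RSEM. HDAC8 had whole counts in 7 libraries and HDAC3 in 10, and the other members in all 12. Some members overlap other genes in GENCODE v29. SIRT2 overlaps NFKBIB and SIRT3 overlaps PSMD13 on the opposite strand, SIRT7 overlaps MAFG on the same strand, and HDAC8 lies almost whole within the annotated gene AL133500.1. The library kit marks strand, but whether the counting used strand is not given in the sources used here, so reads in these overlaps cannot be told apart.

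No member passed the test for lactate in any line. The quasi-likelihood test of edgeR called 0 of 10 in each of the 3 lines at an adjusted p under 0.05, where the background share of all tested genes called was 0% in each line. For the mean of the 3 lactate effects it called 0 of 10 against a background of 0.42%, and for the interaction of lactate with line 0 of 10 against 0%. In none of these 5 comparisons did any member have an unadjusted p under 0.05 either, while the share of all tested genes was 11.6% in SNU475, 6.28% in HLF, 5.92% in PLC/PRF/5, 15.8% for the mean and 3.51% for the interaction. DESeq2 called 0 members in all 5. Its background was 1.49% of tested genes in SNU475, 0.223% in HLF and 0.496% in PLC/PRF/5. For the mean it was 5.32% and for the interaction 0.049%. The median log2 fold change over the members was -0.09 in SNU475, -0.06 in HLF, 0.05 in PLC/PRF/5 and -0.03 for the mean. In bulk RNA a smaller share of cells with a transcript and less of it per cell cannot be told apart.

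The intervals show how large a difference these libraries could have hidden. For the mean lactate effect, the 10 fitted folds ran from 0.905 (HDAC8) to 1.07 (SIRT1), and the 95% confidence intervals of all 10 lay between 0.687 and 1.44, inside a 2-fold change either way. HDAC2 had the narrowest interval, 0.872 to 1.18, and that of HDAC3 was 0.865 to 1.18. SIRT5 had the widest, 0.687 to 1.3. Within single lines the intervals were wider: they lay inside 2-fold for 9 members in both HLF and PLC/PRF/5 and for 6 in SNU475. The intervals that reached past 2-fold were those of SIRT3 in HLF (up to 2.02), SIRT1 in PLC/PRF/5 (down to 0.431), and SIRT1 (up to 2.5), SIRT3 (down to 0.493), SIRT5 (down to 0.466) and HDAC8 (down to 0.49) in SNU475.

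**Figure D2:**
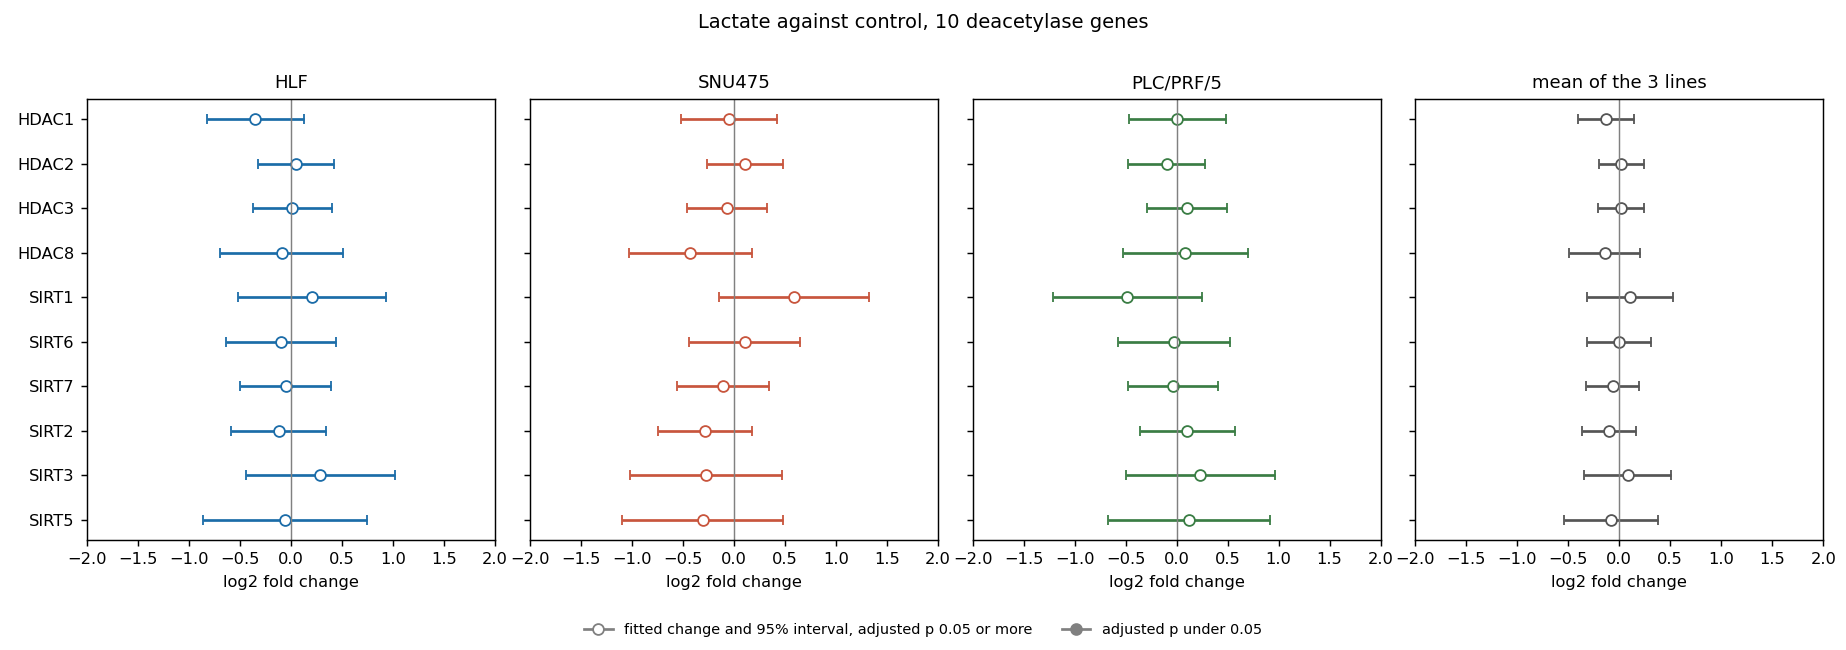
Fitted log2 fold change of lactate against control with its 95% confidence interval for the 10 deacetylase genes, in each line and as the mean of the 3 lines. All points are open, meaning adjusted p of 0.05 or more, and every interval includes 0; SIRT1 lies at 0.59 in SNU475 and at -0.48 in PLC/PRF/5.

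Expression per library is given below in CPM, counts scaled to TMM-corrected library sizes. Both lactate libraries lay beyond both controls for 3 of 10 members in HLF (background 39.6% of tested genes), for 2 of 10 in SNU475 (31.6%) and for 2 of 10 in PLC/PRF/5 (50.3%). In HLF these were HDAC1, lower with lactate, and SIRT1 and SIRT3, higher. In SNU475 they were HDAC8 and SIRT2, both lower, and in PLC/PRF/5 SIRT1 and SIRT7, both lower. No member moved one way without overlap in all 3 lines (background 6.09%). SIRT7 alone had a fitted effect of the same sign in all 3 lines, 1 of 10 against a background of 37.9%, with log2 changes of only -0.05, -0.10 and -0.04.

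HDAC1 in HLF was at 179 and 173 CPM in the controls and at 124 and 152 CPM with lactate. Both treated libraries were lower, and the fitted change was -0.35 ± 0.22 (SE, adjusted p = 0.86, edgeR). In PLC/PRF/5 HDAC1 was nearly flat, at 173 and 175 CPM in controls and 176 and 174 CPM with lactate. In SNU475 it split by library number rather than by treatment: it was 179 CPM in the control and 172 CPM in the lactate library numbered 1, against 126 and 124 CPM in those numbered 2. HDAC2, the partner that shares most complexes with HDAC1, was at 152 and 139 CPM in HLF controls and 152 and 148 CPM with lactate. Its SNU475 values were 141 and 162 CPM in controls and 154 and 172 CPM with lactate, and in PLC/PRF/5 they were 144 and 124 CPM against 135 and 115 CPM. Control and treated libraries of HDAC2 overlapped in every line. Between libraries of the same number HDAC2 was higher with lactate in both pairs of SNU475 and lower in both pairs of PLC/PRF/5. In HLF the pair numbered 1 was level (151.9 CPM in control and 152.2 CPM with lactate) and the pair numbered 2 was higher with lactate. With the replicate number as a block HDAC2 was not called in any line.

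HDAC3, the catalytic subunit of NCoR/SMRT, was the steadiest of the members across the 6 groups. Its HLF controls were at 64.7 and 61 CPM, its SNU475 controls at 54.1 and 52.5 CPM, and its PLC/PRF/5 controls at 51.2 and 52.1 CPM. With lactate it was at 63.5 and 63.4 CPM, 56.9 and 44.8 CPM, and 51.1 and 59.9 CPM in the same order of lines. The highest group mean of HDAC3 was 1.25 times the lowest, which placed it at the 0.686th percentile of tested genes for this ratio. HDAC1 (1.27 times, percentile 1.03) and HDAC2 (1.31 times, percentile 1.53) were similarly level, where the median of all tested genes was 2.93 times. The other members had ratios from 1.51 (SIRT7) to 2.23 (HDAC8).

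HDAC8 in SNU475 was at 20.9 and 28.1 CPM in controls and 18 and 18.5 CPM with lactate. The treated libraries were both lower, with a fitted change of -0.43 ± 0.28 (SE, adjusted p = 0.585, edgeR). In HLF it was at 15.3 and 13.6 CPM in controls and at 12.1 and 15 CPM with lactate, and in PLC/PRF/5 at 12.6 and 9.36 CPM against 9.56 and 13.8 CPM. Groups overlapped in both of those lines.

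SIRT1 deacetylates histones and many transcription factors, among them p53, and it had the most variable response of the members. Because it held the largest fitted lactate effects, the 250 bases before its transcription start are shown (RefSeq, GRCh38.p14, chr10:67884406-67884655, plus strand, 5′ to 3′), with both matches to the E-box letters CACGTG in capitals. The window overlaps 0 exons in GENCODE v29.
SIRT1: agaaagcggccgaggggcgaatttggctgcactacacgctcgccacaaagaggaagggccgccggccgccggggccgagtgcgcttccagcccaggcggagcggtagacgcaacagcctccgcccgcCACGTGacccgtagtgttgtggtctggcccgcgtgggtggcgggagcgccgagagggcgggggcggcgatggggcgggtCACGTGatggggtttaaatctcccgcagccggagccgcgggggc
The matches begin 123 and 44 bases before the start. CACGTG reads the same on both strands, and 6.34% of 35116 RefSeq promoter windows of this length hold it at least once and 0.535% at least 2 times. Of the 9 members with an entry in the promoter table (all but SIRT7), SIRT1 was the only one with an E-box. The SIRT1 window also holds 4 matches to the GC box GGGCGG on either strand, which do not overlap the E-boxes. Of all windows, 42.6% hold the GC box at least once and 24.3% at least 2 times. TATAAA has no match in the SIRT1 window, and 10.7% of windows hold it. With 32 CpG dinucleotides the window is at the 91.9th percentile, where the median window has 11 and that of HDAC8 has 7. A match says only that the letters are present.

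In HLF, SIRT1 was at 32.1 and 36.8 CPM in controls and at 38.5 and 40.7 CPM with lactate, both treated libraries being higher (fitted change 0.20 ± 0.33, SE, adjusted p = 0.988, edgeR). In PLC/PRF/5 it was at 30.1 and 25.3 CPM in controls and at 20.8 and 18.8 CPM with lactate, both lower (-0.48 ± 0.33, adjusted p = 0.959). In SNU475 the controls were at 24.3 and 32 CPM, and the lactate libraries were at 24.8 CPM for number 1 and 60.1 CPM for number 2. The treated libraries therefore lay on both sides of a control, and the fitted change of 0.59 ± 0.33 (adjusted p = 0.523) rested on 1 library. Without SNU475 lactate library 1 it was 1.09 (adjusted p = 0.0127, edgeR), and without SNU475 lactate library 2 it was -0.19 (adjusted p = 0.799). Either fit leaves 1 lactate library, which is assumed to vary like the libraries of the other groups, so these p-values hold no replicate check of that arm. The difference between lines in the response of SIRT1 did not pass either: the interaction had an adjusted p of 1 (edgeR).

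SIRT6, a chromatin deacetylase linked to glycolytic genes and telomeres, was at 14.9 and 16.3 CPM in HLF controls and 11.6 and 17.6 CPM with lactate. Its SNU475 values were 17 and 18.2 CPM in controls against 17.8 and 20.2 CPM with lactate, and its PLC/PRF/5 values 11.4 and 11.2 CPM against 10.9 and 11.3 CPM. Control and lactate libraries overlapped in each line. SIRT7, a deacetylase of histone H3 and of nucleolar proteins, was among the steadier sirtuins. It was at 20.5 and 18.1 CPM in HLF controls and 19.6 and 17.5 CPM with lactate, and at 17 and 15.8 CPM against 16.1 and 14.5 CPM in SNU475. In PLC/PRF/5 the 4 libraries lay between 22.4 and 23.4 CPM.

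SIRT2, known as a tubulin deacetylase, was at 42.9 and 36.4 CPM in SNU475 controls and at 33.1 and 32 CPM with lactate. Both treated libraries were lower (-0.28 ± 0.21, SE, adjusted p = 0.649, edgeR). Its HLF values were 35.3 and 26.6 CPM in controls and 29.6 and 27.2 CPM with lactate, and its PLC/PRF/5 values 21.9 and 22.7 CPM and 21.5 and 26.6 CPM, with overlap in both lines.

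Of the mitochondrial sirtuins, SIRT3 also followed library number in SNU475, and SIRT5 did not. SIRT3, the main deacetylase of the mitochondrial matrix, was at 15.1 CPM in the control and 12.9 CPM in the lactate library numbered 1, against 8.92 and 6.92 CPM in those numbered 2. Its fitted change with lactate in SNU475 was -0.28 ± 0.34 (SE, adjusted p = 0.815, edgeR). In HLF it was at 18.6 and 14.9 CPM in controls and 19.6 and 21.2 CPM with lactate, and in PLC/PRF/5 at 15.1 and 17.3 CPM against 16.5 and 21.6 CPM. SIRT5 in SNU475 was at 15.4 and 15 CPM in controls, so that these agreed, but at 17.5 CPM in lactate library 1 and 6.98 CPM in lactate library 2. Without lactate library 1 its change was -1.12 (adjusted p = 0.0371, edgeR), and without lactate library 2 it was 0.20 (adjusted p = 0.812), again with 1 lactate library left and its spread taken from the other groups. With lactate library 1 left out 9.21% of all tested genes passed in SNU475, where 0% passed with all 12 libraries, so SIRT1 and SIRT5 passed there among many other genes. In HLF SIRT5 was at 8.25 and 6.96 CPM in controls and 7.71 and 6.87 CPM with lactate, and in PLC/PRF/5 at 11.2 and 10.4 CPM against 10.8 and 12.7 CPM.

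**Figure D3:**
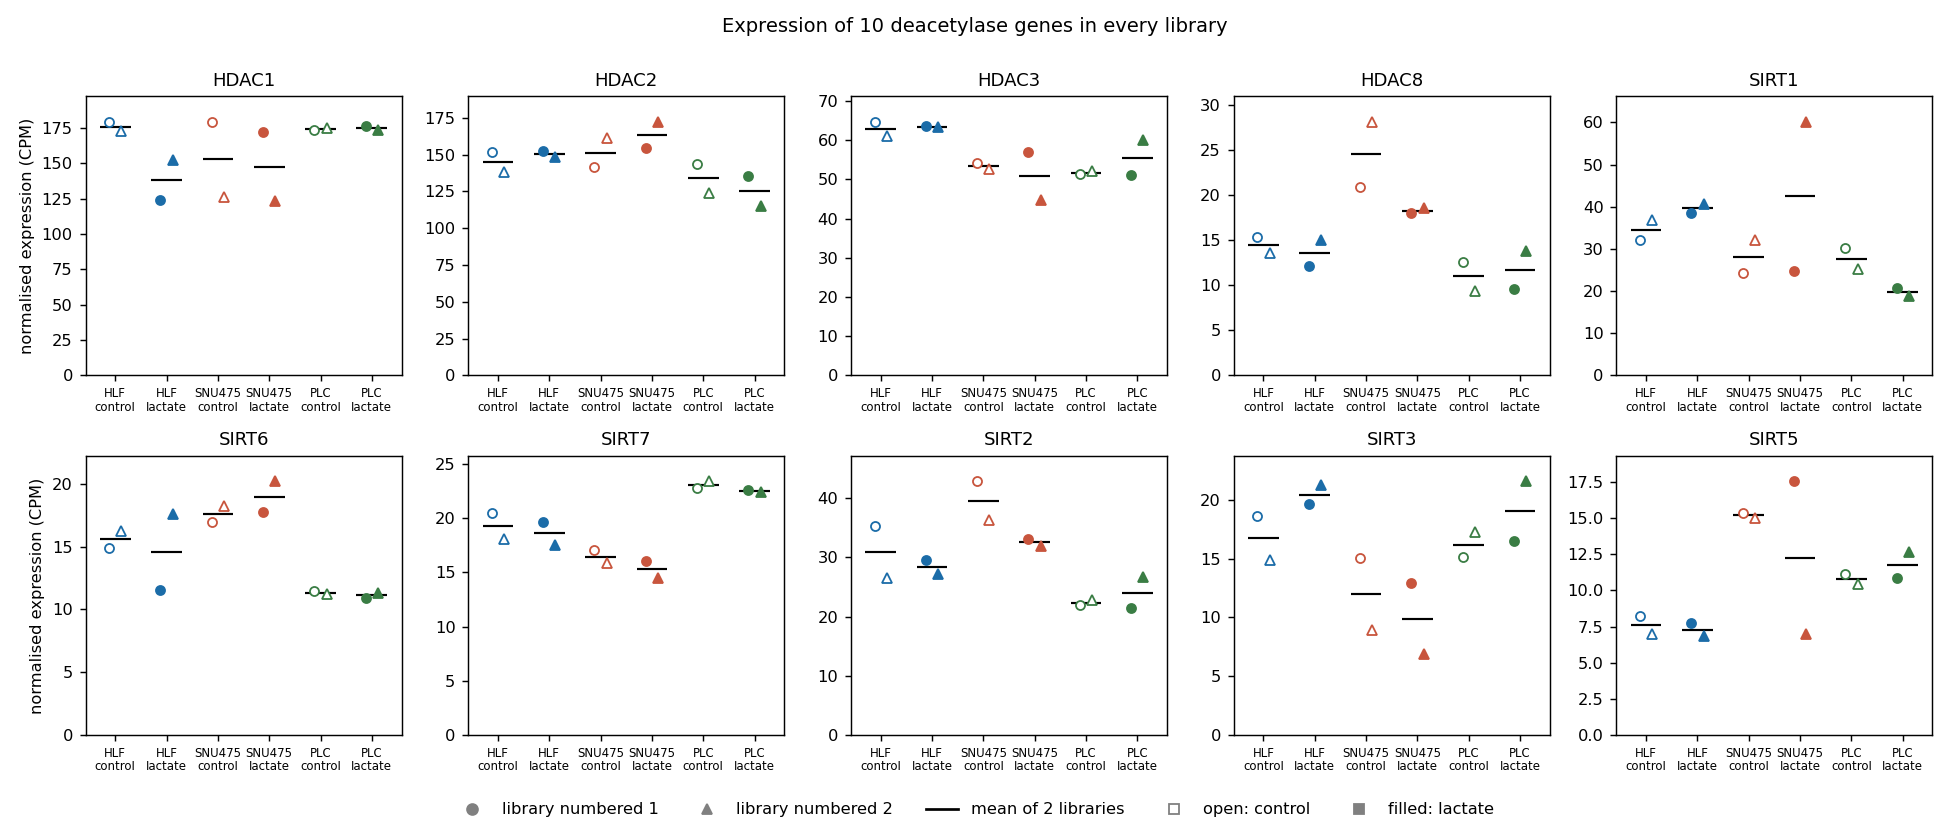
Normalised expression (CPM) of the 10 deacetylase genes in each library, by line and treatment (PLC stands for PLC/PRF/5), with library number shown by symbol and the mean of 2 libraries as a bar; each axis starts at 0. In SNU475 the circles of HDAC1 (179 and 172 CPM) and SIRT3 (15.1 and 12.9 CPM) lie above the triangles (126 and 124 CPM, 8.92 and 6.92 CPM), and in SIRT1 the lactate triangle (60.1 CPM) stands apart.

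Between untreated lines, HDAC8, SIRT2 and SIRT5 differed, and the abundant HDAC1, HDAC2 and HDAC3 did not pass in any pair. HDAC8 and SIRT5 were higher in SNU475 than in HLF: 2 of 10 members, where edgeR called 39% of all tested genes in either direction and 21.9% as higher. HDAC8 and SIRT2 were lower in PLC/PRF/5 than in SNU475, again 2 of 10, where 48.7% of tested genes were called in either direction and 26.3% as lower. For PLC/PRF/5 against HLF the count was 0 of 10 against 43% (21.7% higher and 21.3% lower), and there SIRT2 had the 1 unadjusted p under 0.05 (background 50.2%). DESeq2 likewise called 0 members there (background 44.2%). The 3 comparisons share their control libraries, so their results are not independent of each other. Libraries of the lines did not overlap for 7 of 10 members in SNU475 against HLF (background 68.6%), 7 in PLC/PRF/5 against HLF (75.8%) and 7 in PLC/PRF/5 against SNU475 (77.9%), shares close to those of all genes.

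These fits set the median gene near 0, while TPM does not. Over 14659 tested genes with a mean of at least 1 TPM, the median difference of log2(TPM + 1) was -0.22 for SNU475 against HLF, 0.17 for PLC/PRF/5 against HLF and 0.41 for PLC/PRF/5 against SNU475. TPM differences between lines are therefore given below relative to these medians. Among the members that did not pass, the relative TPM difference had the opposite sign to the fit for HDAC2 in all 3 pairs, for HDAC1 and SIRT3 in PLC/PRF/5 against HLF, and for SIRT6 in SNU475 against HLF.

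HDAC8 (chrX:72329516-72573199, minus strand, GRCh38 as in GENCODE v29) was at 20.9 and 28.1 CPM in untreated SNU475, 15.3 and 13.6 CPM in HLF, and 12.6 and 9.36 CPM in PLC/PRF/5. SNU475 stood above both of the other lines, without overlap. Its fitted fold was 1.69 in SNU475 against HLF (log2 0.76 ± 0.28, SE, adjusted p = 0.0476, edgeR) and 0.449 in PLC/PRF/5 against SNU475 (-1.16 ± 0.28, adjusted p = 0.00529). With the replicate number as a block the first became 0.75 with an adjusted p of 0.0558, and it was also lost without both SNU475 libraries numbered 2 (0.57, adjusted p = 0.117). On leaving out each of the 12 libraries in turn it passed in 3, those without SNU475 control library 1 or either SNU475 lactate library. The second passed in 11 of 12 and was lost without PLC/PRF/5 control library 2 (adjusted p = 0.0706). The relative TPM differences were 0.62 and -0.79, smaller than the fitted ones. The 13 other tested genes within 1000000 bases of HDAC8 had a median log2 change of -1.75 in PLC/PRF/5 against SNU475, and 10 of 13 were negative like HDAC8. In SNU475 against HLF their median was 0.20, and 7 of 13 had the sign of HDAC8. Their part in the results was not tested.

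SIRT2 (chr19:38878555-38899862, minus strand) was at 42.9 and 36.4 CPM in untreated SNU475 and at 21.9 and 22.7 CPM in PLC/PRF/5, with HLF between them at 35.3 and 26.6 CPM. In CPM PLC/PRF/5 lay below both other lines. In TPM its controls (20.87 and 23.89) overlapped those of SNU475 (29.32 and 19.53) and HLF (22.51 and 23.25). Against SNU475 the fitted fold of SIRT2 in PLC/PRF/5 was 0.564 (log2 -0.83 ± 0.21, SE, adjusted p = 0.00772, edgeR), and against HLF 0.722 (-0.47 ± 0.21, adjusted p = 0.0971), which did not pass. The relative TPM difference to SNU475 was -0.51. The call was lost without SNU475 control library 1 and without either PLC/PRF/5 control library, with adjusted p of at most 0.0628. Of 42 tested neighbours within the same distance, 23 had the sign of SIRT2, with a median of -0.05.

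SIRT5 (chr6:13574529-13615158, plus strand) was at 15.4 and 15 CPM in untreated SNU475, 8.25 and 6.96 CPM in HLF, and between them in PLC/PRF/5, at 11.2 and 10.4 CPM. In CPM the lines were ordered without overlap, while in TPM SNU475 (8.41 and 6.74) overlapped PLC/PRF/5 (8.68 and 5.98). Only the outer pair passed: SNU475 was 2-fold HLF (1 ± 0.37 on the log2 scale, SE, 95% interval 1.14-fold to 3.48-fold, adjusted p = 0.0496, edgeR). The relative TPM difference of that pair was 0.75. Of 10 tested neighbours within 1000000 bases, 8 had the sign of SIRT5 in that pair, with a median of 0.78. Their part in the result was not tested. On leaving out single libraries the call held in 2 of 12, those without SNU475 lactate library 1 or 2. This call was lost when the effective length of SIRT5 in each library entered the fit (0.85, adjusted p = 0.151), as was that of HDAC8 (0.69, adjusted p = 0.12). The mean effective length of SIRT5 was 2041 bases in SNU475 controls and 1837 in HLF controls.

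SIRT6 and SIRT7, both nuclear, stood at the edge of the threshold in PLC/PRF/5 against SNU475 and in opposite directions. SIRT6 was at 11.4 and 11.2 CPM in PLC/PRF/5 against 17 and 18.2 CPM in SNU475 (-0.64 ± 0.25, SE, adjusted p = 0.0532, edgeR). SIRT7 was at 22.8 and 23.4 CPM against 17 and 15.8 CPM (0.49 ± 0.20, adjusted p = 0.0659). DESeq2 called both, with adjusted p of 0.0312 and 0.024, in a comparison where it called 49% of all tested genes. With effective lengths as offsets in edgeR, SIRT7 passed (0.73, adjusted p = 0.0196) and SIRT6 did not (-0.27, adjusted p = 0.452). The relative TPM differences were -0.20 for SIRT6 and 0.74 for SIRT7. For the order of levels, HLF lay between the other lines for both genes, at 14.9 and 16.3 CPM for SIRT6 and 20.5 and 18.1 CPM for SIRT7.

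The remaining members gave no call between lines. HDAC1 was lowest in SNU475 by its mean, but 1 SNU475 control (179 CPM) matched the highest of the other lines, and its fold in PLC/PRF/5 against SNU475 was 1.14 with a 95% interval of 0.821 to 1.58. HDAC2 had a fold of 0.884 in the same pair, with an interval of 0.681 to 1.15. HDAC3 was highest in HLF without overlap in CPM, with folds of 0.849 in SNU475 (interval 0.647 to 1.11) and 0.822 in PLC/PRF/5 (0.627 to 1.08). SIRT3 in SNU475 against HLF had a fold of 0.718 (0.431 to 1.2), and SIRT1 one of 0.818 (0.493 to 1.36).

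**Figure D4:**
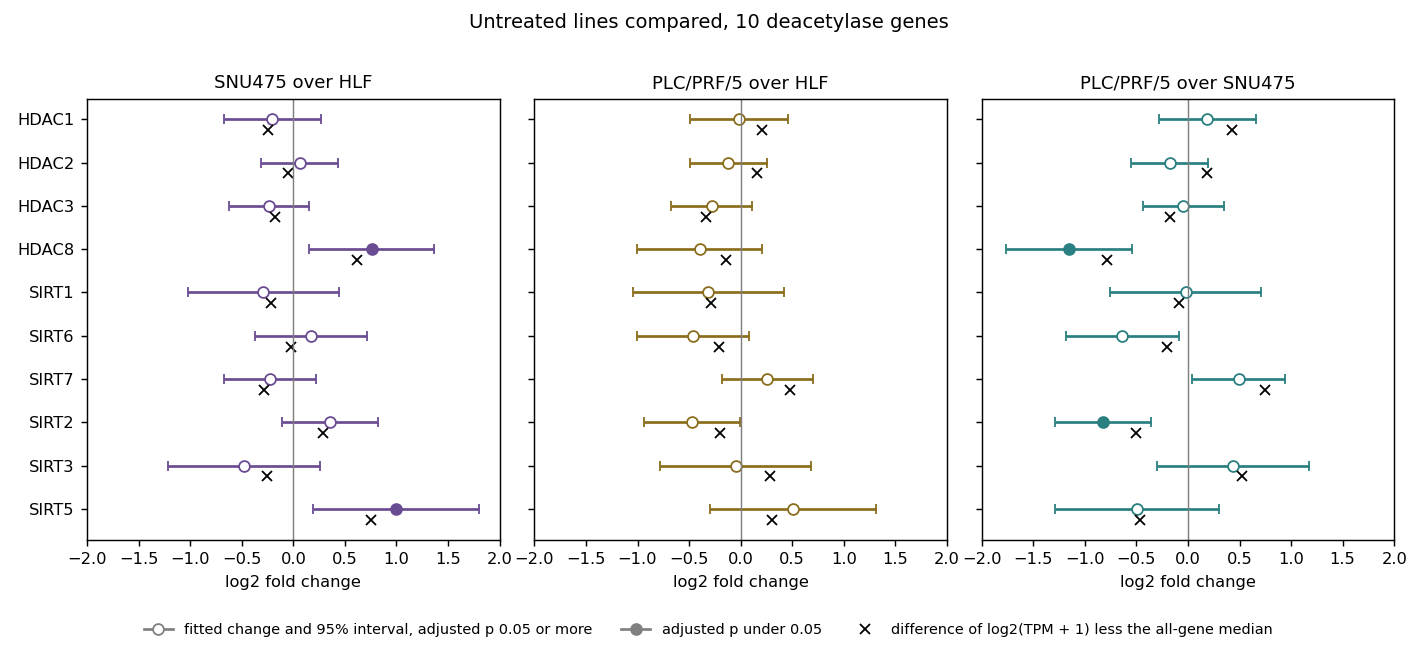
Fitted log2 fold change between untreated lines with its 95% confidence interval for the 10 deacetylase genes; crosses give the difference of log2(TPM + 1) less the median of all genes. Filled points (HDAC8 and SIRT5 in SNU475 over HLF, HDAC8 and SIRT2 in PLC/PRF/5 over SNU475) passed at an adjusted p under 0.05, and their crosses lie on the same side of 0.

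The other 8 deacetylases, HDAC4 to HDAC7, HDAC9 to HDAC11 and SIRT4, included some that differed by larger folds between lines. HDAC5, a class IIa enzyme that shuttles between nucleus and cytoplasm, was lower in PLC/PRF/5 by -2.17 ± 0.23 against HLF (SE, adjusted p = 2.19e-05, edgeR) and by -1.69 ± 0.23 against SNU475 (adjusted p = 0.00013). HDAC4, of the same class, was higher in PLC/PRF/5 by 1.77 ± 0.29 against HLF (adjusted p = 0.000519). This change ranged from 0.87 to 2.13 over the 19 alternatives, and the call held in 18. The mean effective length of HDAC4 was 3641 bases in HLF controls and 6597 in PLC/PRF/5 controls. Of the 8, 1 was higher and 1 lower in SNU475 against HLF, 2 higher and 1 lower in PLC/PRF/5 against HLF, and 1 higher and 1 lower in PLC/PRF/5 against SNU475. These are 2, 3 and 2 of 8, below the all-gene shares of 39%, 43% and 48.7% in the same comparisons. With lactate 0 of the 8 were called in any line or on average by edgeR or DESeq2 (background at most 0.42% and 5.32%). An unadjusted p under 0.05 was seen for 0 of the 8, where the share of all tested genes was 5.92% to 15.8%.

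Of 33 subunits of the complexes that HDAC1, HDAC2 and HDAC3 work in, 1 rose and 1 fell with lactate on average over the lines by edgeR (background 0.305% higher and 0.114% lower), and by DESeq2, which called 5.32% of all tested genes for the mean, 1 rose and 3 fell. In the single lines edgeR called 0 (background 0% in each). An unadjusted p under 0.05 was seen for 3 in HLF (background 6.28%), 6 in SNU475 (11.6%) and 2 in PLC/PRF/5 (5.92%). DESeq2 called BRMS1 in SNU475 (background 1.49%). BRMS1, a subunit of the SIN3 complex that holds HDAC1 and HDAC2, was at 89.8 and 91.1 CPM in HLF controls and at 50.2 and 67 CPM with lactate. The SNU475 values of BRMS1 were 113 and 133 CPM in controls and 72.7 and 60.8 CPM with lactate, and those in PLC/PRF/5 were 47.4 and 46.3 CPM against 31.9 and 30.3 CPM. All 6 treated libraries lay below the controls of their line (background 6.09% of tested genes, either way), and the mean change was -0.70 ± 0.11 (SE, adjusted p = 0.0301, edgeR). RCOR2, a CoREST scaffold that joins HDAC1 and HDAC2 to the demethylase KDM1A, was scarce, with 45, 65 and 52 counts in the control groups of HLF, SNU475 and PLC/PRF/5. With lactate the counts were 131, 121 and 230. All 6 treated libraries lay above their controls (background again 6.09%), and the mean change was 1.45 ± 0.27 (adjusted p = 0.0488, edgeR). BRMS1 and RCOR2 were named for their small p for the mean, so this separation of the same libraries is not further support. Both calls were lost with effective lengths as offsets (-0.69, adjusted p = 0.0571 for BRMS1 and 1.42, adjusted p = 0.107 for RCOR2), with changes close to those above. On leaving out single libraries BRMS1 was lost in 8 of 12 and RCOR2 in 9 of 12, with the highest adjusted p at 0.152 for BRMS1 without PLC/PRF/5 lactate library 2 and at 0.209 for RCOR2 without HLF lactate library 1. The changes stayed between -0.78 and -0.62 for BRMS1 and between 1.29 and 1.63 for RCOR2 over all 19 alternatives.

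Between lines 8 of the 33 subunits were higher and 7 lower in SNU475 against HLF (15 called, where edgeR called 39% of all tested genes), 2 and 9 in PLC/PRF/5 against HLF (11 called, 43%), and 3 and 14 in PLC/PRF/5 against SNU475 (17 called, 48.7%). The shares called lay a little above those of all genes for SNU475 against HLF and for PLC/PRF/5 against SNU475. For PLC/PRF/5 against HLF the share lay below. TBL1X, a subunit of the NCoR/SMRT complex of HDAC3, was almost absent from SNU475: its 2 control libraries held 11 counts together, against 2237 in HLF and 3951 in PLC/PRF/5, and the SNU475 lactate libraries held 3. In pooled CPM the HLF level was 183 times and the PLC/PRF/5 level 334 times that of SNU475 controls. Its close relative TBL1XR1, a subunit of the same complex, was higher in SNU475 than in HLF by 1.16 ± 0.18 (SE, adjusted p = 0.00046, edgeR), at 126 and 142 CPM against 53.4 and 66.9 CPM. HDAC3 itself differed by -0.24 ± 0.18 in that pair (adjusted p = 0.321). In PLC/PRF/5 the MiDAC subunit DNTTIP1 was lower than in HLF by -1.65 ± 0.19 (adjusted p = 3.79e-05).

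**Figure D5:**
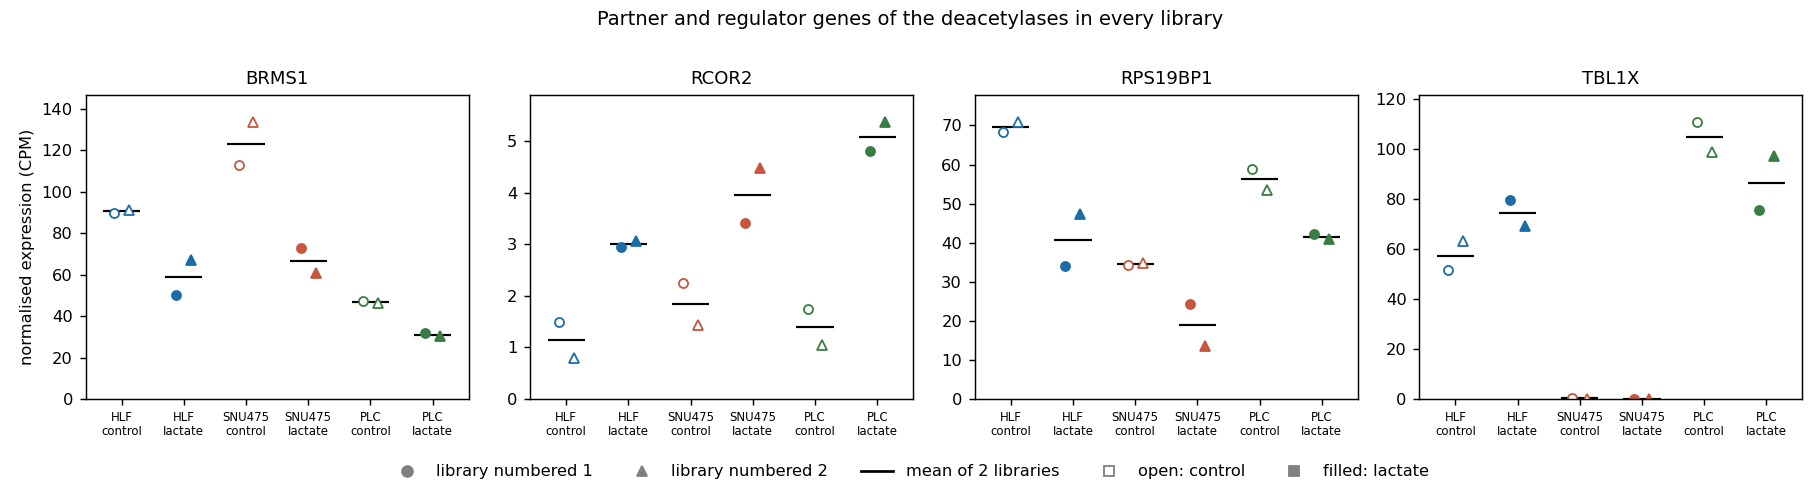
Normalised expression (CPM) of BRMS1, RCOR2, RPS19BP1 and TBL1X in each library, by line and treatment (PLC stands for PLC/PRF/5), with library number shown by symbol and the mean as a bar. For BRMS1 all filled points lie below the open points of their line and for RCOR2 above (background 6.09% of tested genes, either way). TBL1X is at 0.51 CPM or less in SNU475.

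Among 17 regulators of sirtuins and genes of NAD metabolism, 0 were called by edgeR with lactate in any line or on average (background 0% in each line and 0.42% for the mean). Of the 17, 5 had an unadjusted p under 0.05 in HLF (background 6.28%), 1 in SNU475 (11.6%), 1 in PLC/PRF/5 (5.92%) and 1 for the mean (15.8%). The last was RPS19BP1, which encodes AROS, described as a direct activator of SIRT1. It was at 68.3 and 70.8 CPM in HLF controls against 34.1 and 47.3 CPM with lactate, at 34.4 and 34.8 CPM against 24.3 and 13.5 CPM in SNU475, and at 58.9 and 53.6 CPM against 42.2 and 40.9 CPM in PLC/PRF/5. All 6 treated libraries were below their controls (background 6.09% of tested genes, either way), and the mean change was -0.69 ± 0.15 (SE, adjusted p = 0.0693, edgeR). RPS19BP1 was named for its small p for the mean, so the separation is not further support. With the replicate number as a block the adjusted p was 0.00954, and by DESeq2, which called no other of the 17 for the mean (background 5.32%), it was 0.00121. RPS19BP1 passed in only 6 of the 19 alternatives, these 2 among them. Its mean change stayed between -0.86 and -0.57 over all 19. NAMPT, the rate-limiting enzyme of NAD salvage, was at 220 and 262 CPM in SNU475 controls and at 218 and 494 CPM with lactate, so that lactate library 2 stood apart for it as for SIRT1.

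Between lines 5 of the 17 were higher and 3 lower in SNU475 against HLF (background 39% in either direction), 4 and 2 in PLC/PRF/5 against HLF (43%), and 5 and 5 in PLC/PRF/5 against SNU475 (48.7%), counts not far from those shares. NAPRT, which makes NAD from nicotinic acid, was at 37.2 and 26.2 CPM in SNU475 controls, against 2.09 and 0.84 CPM in HLF and 1.64 and 2.69 CPM in PLC/PRF/5. SARM1, an NAD-cleaving enzyme best known from axons, was at 58.6 and 59.3 CPM in PLC/PRF/5 controls and at no more than 1.04 CPM in the controls of the other lines. In PLC/PRF/5 with lactate SARM1 was at 24.7 and 27.4 CPM (-1.18 ± 0.22, SE, adjusted p = 0.191, edgeR), and over all alternatives the change stayed between -1.26 and -1.05. The adjusted p of SARM1 was 0.0296 with the replicate number as a block and 0.00755 without both SNU475 libraries numbered 2. It was 0.98 with effective lengths as offsets and 0.893 to 1 on leaving out each PLC/PRF/5 library. DESeq2 called SARM1 in that comparison (background 0.496%) and in the interaction of lactate with line (0.049%), 1 of 17 in each.

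The kinase subunits and chaperonin genes that modify or fold class I enzymes were also read. Of 6, 0 passed for lactate in any line or for the mean by edgeR or DESeq2 (background at most 0.42% and 5.32%). An unadjusted p under 0.05 was seen for 1 (CCT2, for the mean, background 15.8%). CSNK2A1, a catalytic subunit of casein kinase 2, which phosphorylates HDAC1 and HDAC2, was lower in PLC/PRF/5 than in HLF by -0.93 ± 0.18 (SE, adjusted p = 0.0018, edgeR). Against SNU475, PLC/PRF/5 was lower in CSNK2A1 by -0.98 ± 0.18 (adjusted p = 0.00115) and in the regulatory subunit CSNK2B by -0.97 ± 0.18 (adjusted p = 0.000935). The other catalytic subunit, CSNK2A2, was higher there by 0.71 ± 0.18 (adjusted p = 0.00719). In all, 2 of the 6 were higher and 2 lower in PLC/PRF/5 against SNU475 (background 48.7%), and 0 higher and 2 lower against HLF (43%). In SNU475 against HLF 0 of the 6 were called by edgeR (background 39%), and 1 had an unadjusted p under 0.05 (47.9%).

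The genes whose pattern over the 12 libraries was most like that of a member were found by Pearson correlation of log2(CPM + 1) among tested genes with a mean of at least 5 TPM. They describe these 12 libraries, which share 3 lines, and carry no p. For SIRT7 they were MFSD8 (0.98) and GET1 (0.97), for SIRT5 TPCN2 (0.98) and TRAPPC14 (0.95), and for HDAC8 FBLIM1 (0.95) and ARPC2 (0.93). SIRT1 was most like BTBD10 (0.94) and NEK2 (0.94). The lowest best match was that of HDAC1, with CARS2 (0.90).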

How the data were processed

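Per the file headers, each deposited table holds RSEM expected counts (estimated counts) and TPM, both computed by the authors, with effective lengths. FPKM, also deposited per the file headers, was not used. STAR, RSEM, FastQC and DESeq2 appear in the submitters' processing notes with no version, beside the mouse builds GRCm38 and mm10, but all 62757 rows carry human identifiers. The human build behind the tables is not given in the sources used here. Expected counts were rounded, the 47 pseudoautosomal rows of the Y chromosome were summed with those of the X, and filterByExpr left 18355 genes. Library totals were 16533437 to 22187849 counts, with TMM factors of 0.794 to 1.165. The edgeR 4.0.16 quasi-likelihood model (robust, in R 4.3.3) was fitted to 12 libraries as 6 groups with 6 residual degrees of freedom. Adjusted p-values (Benjamini-Hochberg, threshold 0.05) cover all tested genes. Intervals use the same fit. TPM were compared as group means of log2(TPM + 1), with no test. The scripts were tested on simulated data.

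All 10 members are always named, with up to 3 genes per other list and comparison by smallest p and any of the 8 other deacetylases. Members and lists were chosen with earlier results of these data known. TBL1X, NAMPT and NAPRT satisfy that rule in some comparison only, and their values in other groups were chosen after they were seen.

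Same-numbered libraries of a line deviated together from their group means (correlation 0.139 in HLF, 0.575 in SNU475, 0.291 in PLC/PRF/5, limit 0.1). The main fit is nevertheless unpaired, with no block for the number. Pairing by number entered the tests only as an alternative, the replicate block. The numbers come from titles, no label says what they share, and PLC/PRF/5 libraries numbered 2 carry 3 in the deposited names. Alternatives were DESeq2 1.42.0, RLE size factors, no filter, a replicate block, no mitochondrial genes, effective-length offsets, no SNU475 libraries numbered 2, and each library left out. 1 hepatocyte marker of the list is not reported here and is not in the summed level.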

Additional observations from a re-analysis of the deposited data

Results flagged for a closer look

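SIRT1 is listed because its libraries moved opposite ways with lactate in different lines: both HLF lactate libraries lay above both controls, and both PLC/PRF/5 lactate libraries lay below. The lactate effect in PLC/PRF/5 minus that in HLF was -0.684 on the log2 scale (95% interval -1.72 to 0.348, adjusted p = 1, edgeR). The test of the difference therefore did not pass. For PLC/PRF/5 minus SNU475 the difference of SIRT1 was -1.07 (95% interval -2.11 to -0.037, unadjusted p = 0.0435, adjusted p = 0.927, edgeR). Its SNU475 side rested on 1 lactate library, number 2 at 60.1 CPM, against 24.8 CPM for number 1.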

How the results depend on the processing

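For the 10 members, 1520 values under alternatives were compared with the values reported. Of these, 1479 kept their side of the threshold without a reversal, 28 lost a call, 11 gained one and 2 reversed. The losses all fell on the calls between untreated lines, and the other values were not called to begin with. Over 19 alternatives each, the call held in 8 for SIRT5 and in 6 for HDAC8 in SNU475 against HLF. In PLC/PRF/5 against SNU475 it held in 16 for SIRT2 and in 18 for HDAC8. A change of sign counted as a reversal only for a called effect or one of at least 1 SE. In all, 88 values changed sign, the 2 reversals among them, and the rest are counted among the 1479. For lactate, 0 members were called under every alternative that keeps all 12 libraries and without both SNU475 libraries numbered 2, although the all-gene count for the mean effect went from 77 to 977 by DESeq2 and 1268 with the replicate block. Leaving out single libraries, members called in SNU475 ranged from 0 to 2, SIRT1 there from -0.19 to 1.09 and NAMPT from -0.15 to 1.04. NAMPT was -0.023 without both SNU475 libraries numbered 2. With effective-length offsets HDAC4 in SNU475 with lactate was 0.35 against -0.50, and HDAC2 in PLC/PRF/5 against SNU475 was 0.11 against -0.18; the cause was not tested.

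For untreated SNU475 against HLF the 2 members called became 1 with no low-count filter (background 23.4%) and 1 with the replicate block (39.1%). With effective-length offsets they became 0 (35.2%). The pairing block changed no other member call. For PLC/PRF/5 against HLF the count went from 0 to 1 (SIRT5, adjusted p = 0.0389, edgeR) without both SNU475 libraries numbered 2. For PLC/PRF/5 against SNU475 it went from 2 to 4 by DESeq2 (background 49%) and to 3 with effective-length offsets (45.1%). With 2 libraries a group, the 95% intervals of the lactate effect reached past 2-fold for SIRT1, SIRT3, SIRT5 and HDAC8 in SNU475, for SIRT3 in HLF and for SIRT1 in PLC/PRF/5.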
